A study of Mus musculus with 12 samples.

Results

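The kinesin superfamily was examined in maps of N6-methyladenosine (m6A) from mouse testis. Members were taken by name, as every peak whose gene symbol begins with Kif or Klc followed by a digit, or by c for the Kifc genes. This gave 46 genes of the 17795 gene symbols that had a peak. They held 97 of the 33078 peaks listed for wild type (WT) and 95 of the 32277 listed for the knockout (KO). Of 50 RefSeq symbols that fit the rule, 4 (Kif12, Kif9, Kif22-ps and Kifc5c-ps) had no peak in either list. Of the 46 genes, 40 are motor genes and 4 (Klc1 to Klc4) are light chains, which link cargo to the motors of the kinesin-1 family. The other 2 encode no motor, and are Kif16bos, the antisense gene of Kif16b, and Kif4-ps, a pseudogene with sequence close to that of Kif4.

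The testes came from males at postnatal day 18, either WT or Alkbh5-/-, called KO here. Alkbh5 is an enzyme that takes the methyl group off m6A. Poly(A) RNA of whole testis was fragmented and pulled down with an m6A antibody (IP), with input RNA beside it, in 3 replicates of each genotype and fraction, 12 libraries in all. The values analysed were the authors' 2 peak lists, 1 for each genotype, with a fold enrichment of IP over input and a false discovery rate (FDR) per peak. The labels do not give the deleted part of Alkbh5 or the strain, and they name the tissue as testis although the study is about spermatocytes. Alkbh5 itself carried 3 WT peaks and 0 KO peaks.

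No value per library was used, so the depth is unknown, and no replicate error and no test could be given. Intervals are 95% intervals for counting error only, and they treat peaks as independent although peaks of a gene share its RNA. Peaks that had 1 or more bases in common with a same-strand peak of the other genotype are called shared, and the rest are called WT-only or KO-only. A peak is a call made over the libraries of a genotype from whole tissue, so fewer cells of a type, less RNA per cell and less methylation cannot be told apart. Of the germ cell markers 8 of 10 had a peak (7 with a WT and 6 with a KO peak), of the somatic markers 8 of 9 (7 and 6), and of the late spermatid markers 1 of 6, Tnp1 in the KO list. No peak of these lists shows the level of its transcript.

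Kinesins are motor proteins that split ATP to walk along microtubules, most of them toward the plus end and those of the kinesin-14 family toward the minus end. In the testis they build the spindles of mitosis and meiosis, keep open the bridges between daughter germ cells, shape the manchette around the spermatid nucleus and carry cargo into the sperm tail. m6A is set on adenosines, mostly within GGAC-like motifs of long exons and near stop codons, and it can alter the decay, splicing and translation of the RNA that carries it.

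Some peaks reached the very start of a kinesin transcript, where RefSeq sequence can be set beside them. Of the 46 genes, 35 were matched in the RefSeq promoter table (GRCm38.p6), and 8 of these had a peak over at least part of the first 50 transcribed bases. For Kif4 only the last few bases of a WT peak reached into them. The sequences shown are 30-base stretches from the transcribed strand of Kif7, Kif24 and Kif3c, the 3 of these 8 with GGAC on that strand, and of Kif3b, the member with the highest fold. Capitals mark GGAC and the base after it. The stretches lie at chr7:79715670-79715699 (minus strand) for Kif7, chr4:41464813-41464842 (minus) for Kif24, chr12:3365152-3365181 (plus) for Kif3c and chr2:153291416-153291445 (plus) for Kif3b.
Kif7: ctgcgcgtcccgGGACTgcgctcgcactct
Kif24: atgtggcctggcGGACAcctaaggcgggtt
Kif3c: tccgactggtgggcgcgGGACCtgggtggg
Kif3b: gagcgccgcggtctctccccatccggggca
The GGAC of Kif7 began at base 21 from the RefSeq start, that of Kif24 at base 19 and that of Kif3c at base 38. Over the same 50 bases of 32851 RefSeq genes, GGAC stood on the transcribed strand of 18.9% and on either strand of 33.3%. GGACT, with the last base that is most often seen at m6A sites, stood on the transcribed strand of 5.76% and on either strand of 10.4%. Kif24 was the only one of the 8 whose RefSeq start was an A. The peaks over the printed stretch of Kif7 had folds of 7.41 in WT and 7.22 in KO, with log10 FDR of -2.49 and -2.22. For Kif24 the fold was 7.41 in WT with a log10 FDR of only -0.602, a weak call. For Kif3c it was 7.22 in KO (-6.15), and for Kif3b 33.1 in KO (-245). A match of letters is a description of the window, not a mapped site, and a peak is far wider than the motif.

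Most kinesin genes had peaks in both lists, as most genes did. Each list held 43 of the 46 genes (93.5%, 82.5 to 97.8), where the WT list held 91.9% and the KO list 88.3% of all genes with a peak, and 40 were in both. In 32 of the 40 the strongest WT peak overlapped the strongest KO peak. The 8 exceptions were Kif13a, Kif16b, Kif23, Kif24, Kif4, Kif4-ps, Kif6 and Kifc3. The highest fold of the gene was larger in the KO list for 23 of the 40 and larger in the WT list for 17, and Spearman's rho of the highest folds was 0.75 over these 40 genes, which share the libraries behind each list. The median fold of the kinesin peaks was 5.43 (4.44 to 6.48) in WT, beside 6.02 for all WT peaks, and 6.47 (4.81 to 7.22) in KO, beside 6.32 for all KO peaks. A peak with an FDR of 1e-05 or below, called the stricter FDR here, was present in both lists for 27 members. Kif22 and Kif4-ps had such a peak in WT alone, Kif17 and Kif2a had it in KO alone, and 15 members had none. For the counts of overlapping strongest peaks and of members at the stricter FDR, shares over all genes are not given. Those counts describe the members only.

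**Figure D1:**
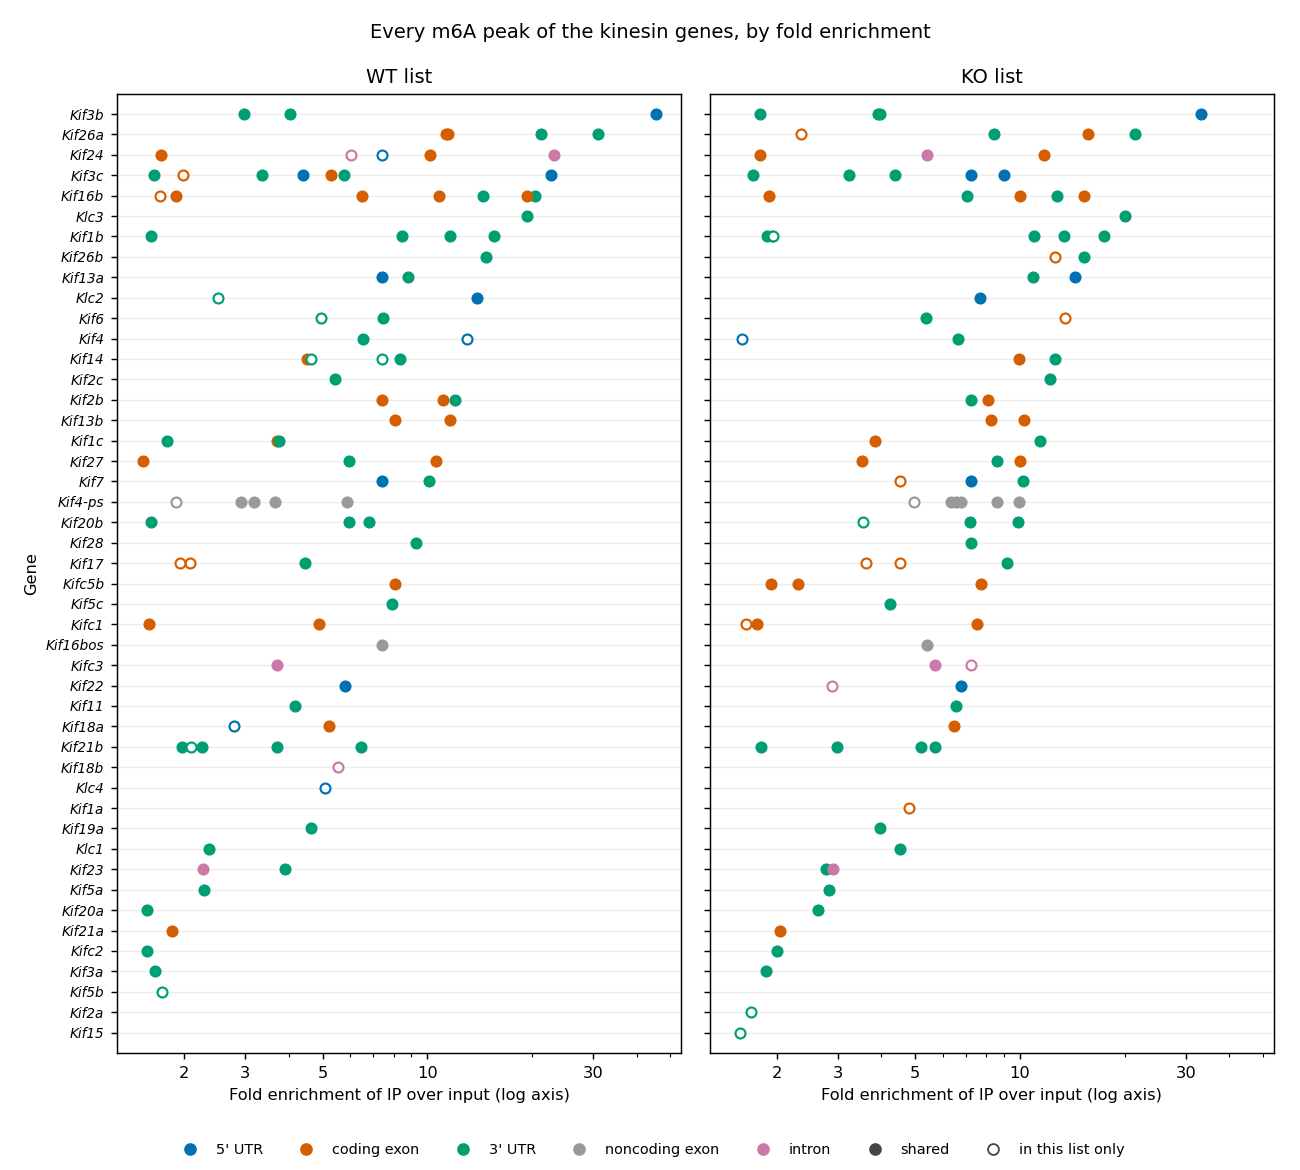
Fold enrichment of IP over input (log axis) of each of the 97 WT and 95 KO peaks, with 1 row per gene ordered by its highest fold. Colour gives the authors' position class, filled points are shared and open points are in 1 list only. Kif3b stands highest in both lists at 45.4 and 33.1, and open points lie between 1.57 and 13.5.

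The shared peaks with the highest folds lay in Kif3b and Kif26a in both lists. Kif3b, a motor subunit of heterotrimeric kinesin-2 that drives intraflagellar transport, had a 5' UTR peak of fold 45.4 in WT (chromosome 2, 153291473 to 153317683, introns included) and 33.1 in KO (153291413 to 153320333). These folds ranked 188 among all WT and 359 among all KO peaks. The log10 FDR was below the listed range in WT and -245 in KO, so this was among the best supported kinesin peaks in both lists. Its 3' UTR peaks were much weaker, at 4.04 and 2.97 in WT and from 1.79 to 3.96 in KO.

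Kif26a, which lacks ATPase activity and restrains growth factor signalling in enteric neurons, had its strongest peak in the 3' UTR, at 31.0 in WT (chromosome 12, 112180489 to 112180909) and 21.5 in KO (112179924 to 112180909). Its coding peaks reached 11.5 in WT and 15.7 in KO, with a weak KO-only peak of 2.35 before them. Klc3, a light chain known from rodent spermatids, where it associates with mitochondria and outer dense fibres, had 1 peak in each list, in the 3' UTR, at 19.4 in WT (chromosome 7, 19394467 to 19395918) and 20.0 in KO (19394496 to 19395888). The log10 FDR of the Klc3 peak was -318 in WT and below the listed range in KO. On the opposite strand the Klc3 peak lay over a peak of Ercc2, a helicase of DNA repair, of fold 19.1 in WT and 28.7 in KO. The use of strand in counting reads is not given in the sources used, so the RNAs of these overlapping genes cannot be told apart.

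Other high folds differed in their support. The WT 5' UTR peak of Kif3c (22.7, log10 FDR -13.8) and a KO 3' UTR peak of Kif1b (17.5, -67.5) passed the stricter FDR clearly. High folds in Kif24, Kif16b and Kif26b had FDR near or above that limit. Kif24, which trims microtubules at centrioles, had a WT intron peak of 23.1 (chromosome 4, 41447405 to 41455147) with a log10 FDR of -5.11, against 5.41 in KO (41454489 to 41454937) with -1.29. Kif16b, an endosomal motor, had a WT 3' UTR peak of 20.4 (chromosome 2, 142699078 to 142699497) with a log10 FDR of -4.49. The KO peak at that place had 7.04 and -5.53. A further 3' UTR peak of Kif16b, at the end of the gene, was far better supported and is described below. Kif26b, the paralog of Kif26a, had a 3' UTR peak of 14.8 in WT and 15.3 in KO (chromosome 1, 178932122 to 178932752 and 178932182 to 178932722), with log10 FDR of -2.82 and -3.27, and a KO-only coding peak of 12.6 with -2.28.

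Folds moved in steps of 0.926 (WT list) and 0.902 (KO list), and many peaks with an FDR above 1e-05 sat on these steps. Among kinesin peaks with a fold of 3 and above and an FDR above 1e-05, 20 of 27 WT peaks (74.1%, 55.3 to 86.8) and 17 of 26 KO peaks (65.4%, 46.2 to 80.6) were whole multiples of the step to the listed decimal. At the stricter FDR 7 of 42 (16.7%) and 6 of 44 (13.6%) were. Over all peaks of the lists the shares were 69.6% and 69.9% above that FDR, and 20.0% and 18.2% at or below it. In the WT list, the folds of 23.1 in Kif24 and 20.4 in Kif16b were 25 and 22 steps. Those of 45.4 in Kif3b and 19.4 in Klc3, with far smaller FDR, also matched, at 49 and 21 steps. High folds are listed with fewer decimals, so some match a step by rounding alone. The rate of such matches was not computed, so no single match shows that a fold is stepped. The input under peaks on a step is unknown, and folds of those peaks above the stricter FDR may not be exact ratios.

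**Figure D2:**
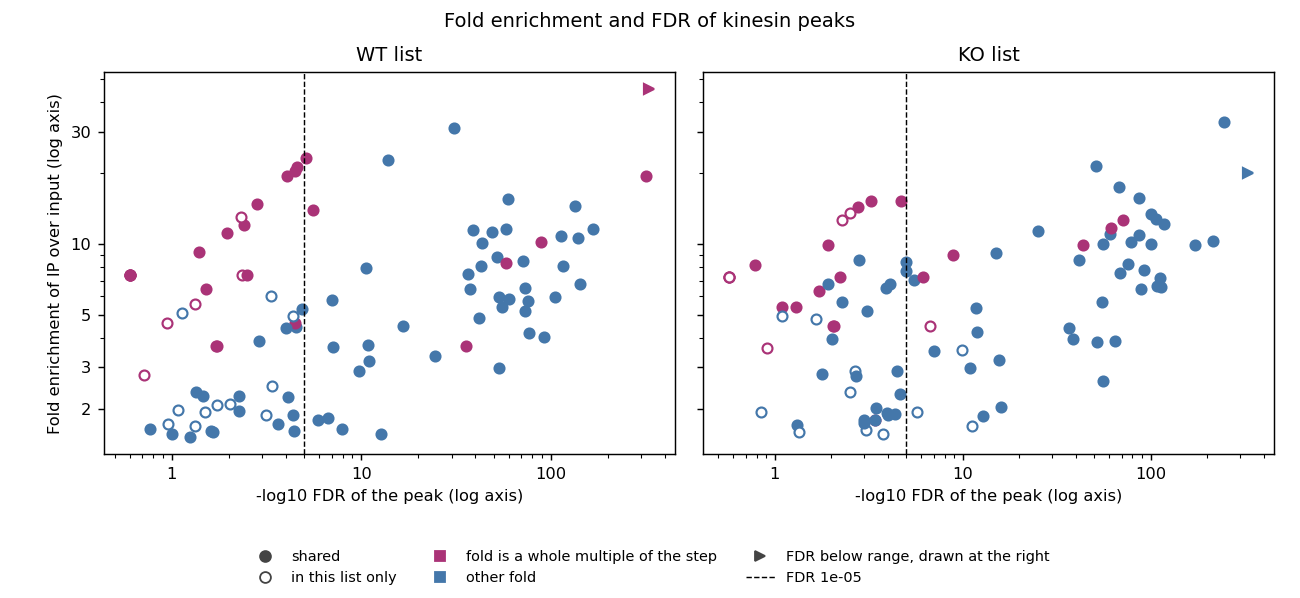
Fold enrichment against -log10 FDR (both axes log) of every kinesin peak, by list, with filled points shared and open points in 1 list only. Purple marks folds that are whole multiples of the step, and the dashed line marks an FDR of 1e-05. At a fold of 3 and above, 20 of the 27 WT peaks and 17 of the 26 KO peaks left of the line are purple, against 7 of 42 and 6 of 44 right of it.

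The share of peaks without a partner was near that of the whole lists. WT-only peaks numbered 17 of 97 (17.5%, 11.2 to 26.3), against 21.6% of all WT peaks. KO-only peaks numbered 17 of 95 (17.9%, 11.5 to 26.8), against 19.3% of all KO peaks. By genes, 14 of 46 (30.4%, 19.1 to 44.8) had a WT-only peak, where 32.0% of all genes did, and 15 of 46 (32.6%, 20.9 to 47.0) had a KO-only peak, where 27.9% of all genes did. These intervals include the shares of the whole lists. Both kinds were present in 4 of 46 members (8.70%, 3.43 to 20.3), Kif17, Kif4, Kif4-ps and Kif6, and in 1334 of all 17795 genes. Neither kind was present in 21 of 46 (45.7%, 32.2 to 59.8), where 47.7% of all genes had neither. Each of these intervals takes in the share of all genes.

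The partnerless peaks had shorter median spans than the shared ones, and most had an FDR above 1e-05. Their median span was 151 bases for the WT-only and 269 for the KO-only peaks, where shared kinesin peaks had 584 and 660. Some were far longer, introns included, up to 73227 bases for the KO-only peak of Kif6 and 38834 for a WT-only peak of Kif16b. Their folds ran from 1.70 to 13 in WT and from 1.57 to 13.5 in KO. In each list 4 of the 17 lay within 200 bases of a peak of the same gene in the other list. In Kif4, a motor that rides on chromosome arms, the WT-only peak of the 5' UTR (chromosome X, 100625917 to 100626067, fold 13, log10 FDR -2.33) and the KO-only peak (100626127 to 100626186, fold 1.59, log10 FDR -1.34) lay 59 bases apart. The RefSeq start of Kif4 is at 100626065, so nearly all of the WT-only peak lies upstream of it, though inside the authors' gene span. That peak also shares 143 bases with an opposite-strand peak of Pdzd11 of the same fold, 13. Whether the WT-only and KO-only calls mark the same RNA was not tested. The Kif4 peak in the 3' UTR was shared and well supported, at 6.54 in WT and 6.66 in KO with log10 FDR of -73.7 and -108.

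At the stricter FDR 0 of 97 WT peaks were WT-only (Wilson upper bound 3.81%), where 2.31% of all WT peaks were. In the KO list 4 of 95 were KO-only (4.21%, 1.65 to 10.3), against 1.86% of all KO peaks. Both intervals take in the share of the whole list. By genes, 0 of 46 had such a WT-only peak, beside 3.87% of all genes. Such a KO-only peak was present in 4 of 46 (8.70%, 3.43 to 20.3), an interval above the 3.15% of all genes. Among protein-coding genes alone it was 4 of 44 (9.09%, 3.59 to 21.2), an interval that takes in their 3.82%. The 4 peaks lay in Kif17, Kif1b, Kif2a and Kif20b.

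Kif17, a homodimeric kinesin-2 motor that in mouse round spermatids moves a coactivator of the factor CREM out of the nucleus, had the KO-only coding peak of the highest fold among the 4. It lay on chromosome 4 from 138275040 to 138278098, with fold 4.51, which is 5 steps, and log10 FDR -6.73. Kif17 also had a weak KO-only coding peak of 3.61 (log10 FDR -0.909) and 2 weak WT-only coding peaks of 2.08 and 1.94 (log10 FDR -1.74 and -1.50) farther along the gene. All 4 coding peaks of Kif17 were thus in 1 list only, while its 3' UTR peak was shared, at 4.44 in WT and 9.2 in KO with log10 FDR of -4.54 and -15.1.

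Kif20b, a motor of late cytokinesis, had a KO-only peak on chromosome 19 from 34937467 to 34938486 of fold 3.55 and log10 FDR -9.88. Its shared peaks lay downstream of it, at 6.80, 5.96 and 1.61 in WT and 9.87 and 7.19 in KO. The authors class all of them as 3' UTR, of a single transcript, although their centres lay from 0.293 to 0.564 of the way along the gene span. Kif1b, a mitochondrial and vesicle motor, had a KO-only 3' UTR peak on chromosome 4 from 149177308 to 149177488 of fold 1.94 and log10 FDR -5.74, between 2 shared peaks. Kif2a, which takes microtubules apart at their ends, had a KO-only 3' UTR peak on chromosome 13 from 106961595 to 106961863 of fold 1.69 and log10 FDR -11.2, and no WT peak. Both of the last 2 peaks thus had a low fold beside a small FDR.

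Genes with peaks in 1 list alone were few. In the WT list alone were 3 of 46 (6.52%, 2.24 to 17.5), where 11.7% of all genes with a peak were, and in the KO list alone also 3 (6.52%), where 8.08% of all genes were. On the WT side, Kif5b, the ubiquitous heavy chain of kinesin-1, had a 3' UTR peak of 1.73 (log10 FDR -0.961). Klc4, a light chain, had a 5' UTR peak of 5.09 (log10 FDR -1.13, chromosome 17, 46645133 to 46646022). Kif18b, a motor that shortens astral microtubules, had an intron peak of 5.55 (log10 FDR -1.33, chromosome 11, 102924528 to 102924647). On the KO side, Kif1a, a neuronal vesicle motor, had a coding peak of 4.81 (log10 FDR -1.66, chromosome 1, 93073050 to 93073813). Kif15, which helps hold spindles bipolar, had a 3' UTR peak of 1.57 (log10 FDR -3.78, chromosome 9, 123014496 to 123017396). The KO side was completed by Kif2a, and that peak was the only one of the 6 to pass the stricter FDR.

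The 3' UTR held more kinesin peaks than any other position class, and coding exons held a higher share of kinesin peaks than of all other peaks. The 3' UTR held 49 of 97 WT peaks (50.5%, 40.7 to 60.3) and 47 of 95 KO peaks (49.5%, 39.6 to 59.4), beside 48.9% and 48.8% of all other peaks. Coding exons held 26 of 97 WT peaks (26.8%, 19.0 to 36.4), 9.06 percentage points (1.24 to 18.6) above other peaks, and 28 of 95 KO peaks (29.5%, 21.2 to 39.3), 10.1 points (1.82 to 19.9) above. Against other peaks of protein-coding genes alone the difference was 7.30 points (-0.985 to 17.3) in WT and 8.97 points (0.157 to 19.3) in KO, so in WT the interval took in 0. Counted by genes, which are closer to independent, 18 of 44 protein-coding members (40.9%, 27.7 to 55.6) had a coding peak in either list, beside 33.5% of other protein-coding genes. That difference of 7.41 points had an interval from -5.84 to 22.1. Kinesin genes are long, with a median gene span of 41363 bases over the members with a WT peak. Over all genes with a WT peak, noncoding genes included, it was 18340. The part of length in the coding share was not tested.

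**Figure D3:**
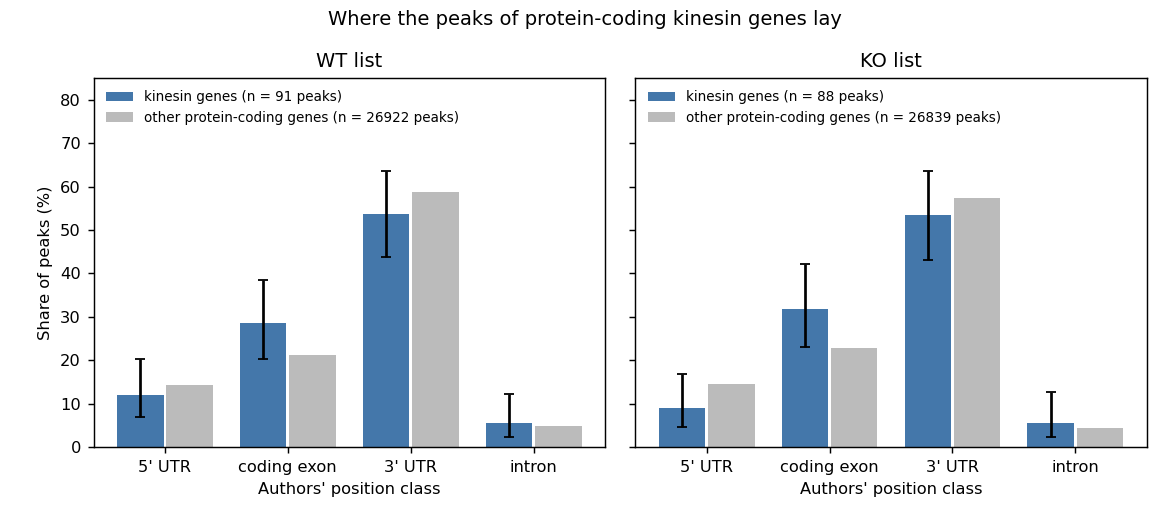
Share of peaks in each position class given by the authors, for protein-coding kinesin genes (91 WT and 88 KO peaks) and other protein-coding genes (26922 and 26839 peaks), with Wilson 95% intervals for counting error. The coding share of kinesin peaks is 28.6% in WT and 31.8% in KO, against 21.3% and 22.9%.

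Of the 44 protein-coding members 14 (31.8%) had a coding peak in WT and 17 (38.6%) in KO, beside 27.1% and 27.9% of all protein-coding genes. Both lists held a coding peak for 13 members, although those of Kif17 did not overlap. The WT list alone did for Kif3c, and the KO list alone did for Kif1a, Kif26b, Kif6 and Kif7. The share of all genes with a coding peak in both lists is not given, so these counts describe the members only. For 11 members a coding peak passed the stricter FDR in both lists, and these were Kif13b, Kif14, Kif16b, Kif18a, Kif1c, Kif21a, Kif24, Kif26a, Kif27, Kifc1 and Kifc5b. Kif13b, a motor that carries signalling cargo, had its strongest coding peak at 11.6 in WT and 10.3 in KO (chromosome 14, 64800441 to 64803838 and 64800411 to 64803838), with log10 FDR of -167 and -215. Kif27, related to the Hedgehog regulator Kif7, had a coding peak of 10.6 in WT and 9.99 in KO (chromosome 13, 58337602 to 58344739 and 58337631 to 58344769). Kif18a, which dampens chromosome movement at the metaphase plate and is needed for germ cells in mice, had 1 coding peak in each list, of 5.22 and 6.47 (chromosome 2, 109317951 to 109333576 and to 109333606), and a WT-only 5' UTR peak of 2.78 (log10 FDR -0.718). Kif24 had its best supported peak in a coding exon, at 10.2 in WT and 11.7 in KO with log10 FDR of -89.5 and -61.8. Its WT-only peaks lay in an intron (6.02, log10 FDR -3.34) and the 5' UTR (7.41, log10 FDR -0.602). Kif1c, a vesicle motor, had a coding peak of 3.70 in WT and 3.83 in KO, with log10 FDR of -35.8 and -51.7. Of the partnerless peaks, 8 of 17 KO-only and 4 of 17 WT-only lay in coding exons, a difference of 23.5 points with an interval from -8.09 to 49.6. Over all genes the coding shares were 21.7% (KO-only) and 12.4% (WT-only).

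**Figure D4:**
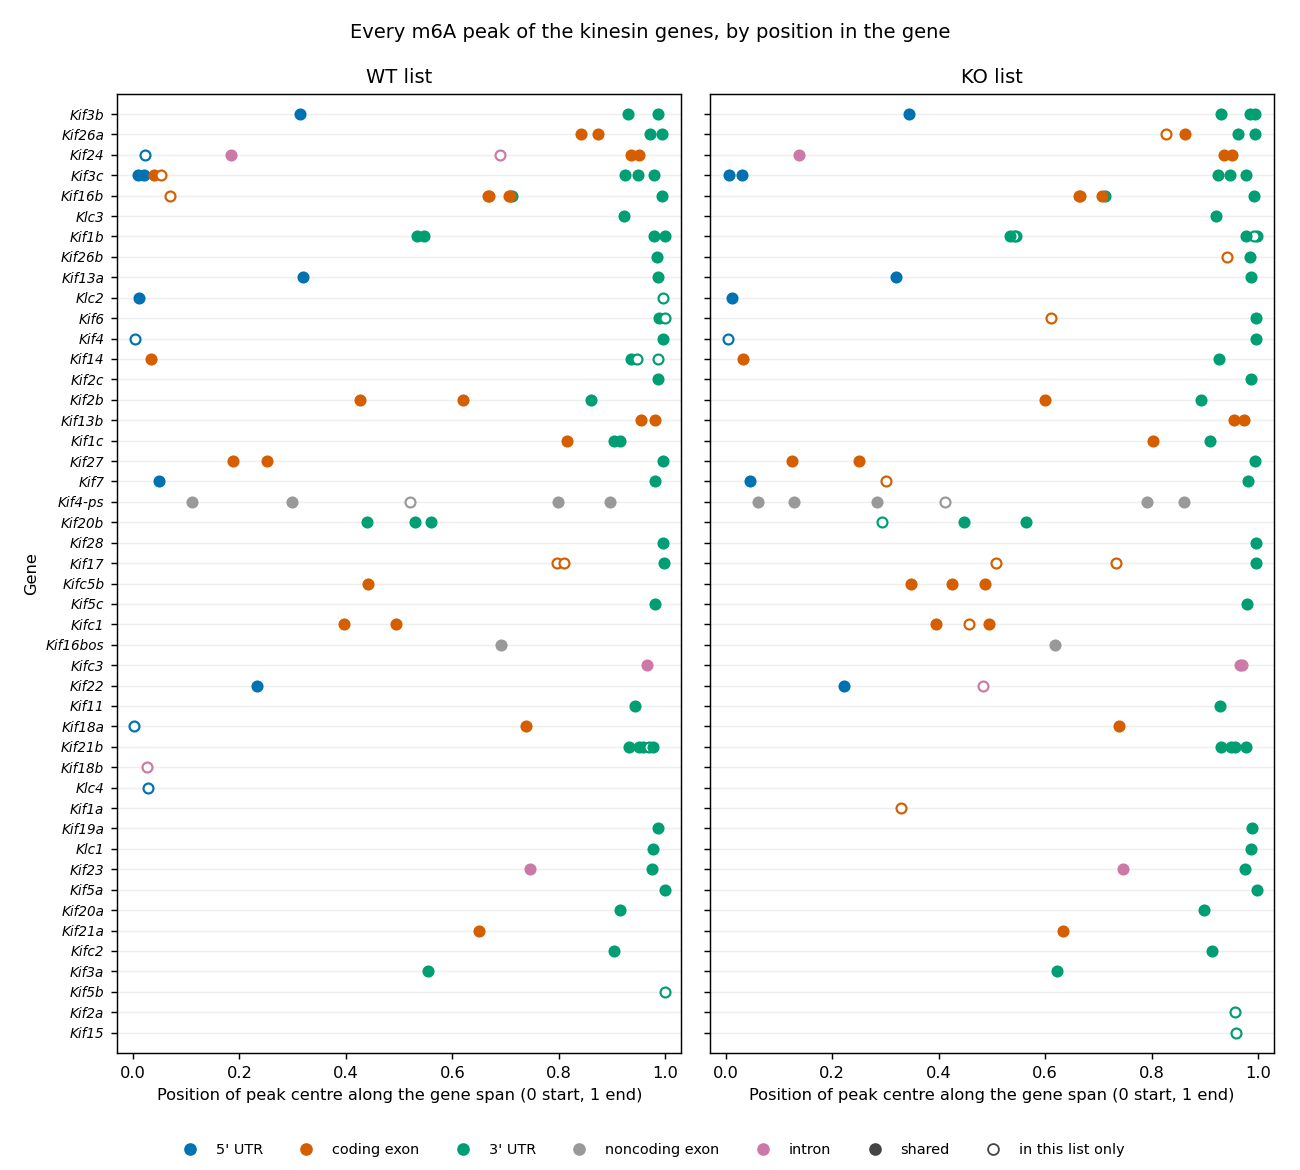
Position of the centre of every kinesin peak along the gene span in the authors' annotation, introns included (0 is the start and 1 the end of the gene), with genes in the order of their highest fold. Colour gives the position class, and open points are in 1 list only. Points crowd at the end of the gene, where 3' UTR peaks have a median position of 0.974 in WT and 0.963 in KO, while Kif1b, Kif20b and Kif3a carry 3' UTR peaks inside the span.

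Kif1b and Kif16b carried peaks at the ends of more than 1 transcript. Kif1b makes a short and a long form that differ in their tails and cargo. Its 3' UTR peaks fell into 2 groups, which the authors assign to 2 transcripts. The group inside the gene had folds of 15.6 and 11.6 in WT (chromosome 4, 149236821 to 149238290 and 149235472 to 149236311) and of 17.5, 11 and 1.95 in KO. The group at the end of the gene had 8.46 and 1.61 in WT and 13.4, 1.94 and 1.88 in KO. Both ends were thus marked in both genotypes, and with 10 peaks over the lists Kif1b was among the 5 members with the most.

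Kif16b, with 12 peaks, showed a like arrangement. A 3' UTR peak at the end of the gene had 14.5 in WT and 12.8 in KO (chromosome 2, 142619179 to 142619867 and 142619119 to 142619867), with log10 FDR of -135 and -107. A coding peak of 10.8 in WT and 9.99 in KO (142712017 to 142712915 and 142711718 to 142712765) was as well supported, with -114 and -101. The peaks from 142699078 to 142700933 of WT, at 20.4, 19.4 and 6.48, belong to other transcripts, and in the WT list none of them passed the stricter FDR. Kif16bos, transcribed from the other strand, had 1 shared noncoding peak, of 7.41 in WT and 5.41 in KO with log10 FDR of -0.602 and -1.09. Kif13a, a motor of endosomal membranes, had a shared 3' UTR peak of 8.81 in WT and 10.9 in KO (chromosome 13, 46750196 to 46752627 and 46750256 to 46752627) with log10 FDR of -52.2 and -86.4. Its 5' UTR peak of 7.41 and 14.4 had log10 FDR of only -0.602 and -2.76, so the peak with the higher KO fold was the weaker call. Kif28 had 1 shared 3' UTR peak, of 9.26 and 7.22, with log10 FDR of -1.39 and -0.572.

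Among the motors of cilia and tails, Kif3c, the alternative partner of Kif3a, had 12 peaks and the densest pattern. Its 5' UTR peaks stood at 22.7 and 4.40 in WT (chromosome 12, 3365672 to 3366361 and 3365372 to 3365612) and at 9.02 and 7.22 in KO (3365732 to 3367081 and 3365132 to 3365612). A coding peak of 5.29 (3366481 to 3367111) followed in WT, where the KO peak ran on from the 5' UTR, so the calls were split at different places. Its 3' UTR peaks were 5.75, 3.35 and 1.64 in WT and 4.39, 3.22 and 1.71 in KO. The 2 stronger of these faced peaks of 1110002L01Rik on the opposite strand with nearly equal folds, 5.49 and 3.42 in WT and 4.31 and 3.06 in KO. Kif3a, the common partner of Kif3b and Kif3c, had only 1 weak peak in each list, of 1.65 and 1.86, and the kinesin-2 genes together had 14 WT and 13 KO peaks with 3 WT-only and 2 KO-only. Kif7, which acts at the tip of the cilium, had a shared 3' UTR peak of 10.1 and 10.2 (chromosome 7, 79698098 to 79698757 in both lists) and a KO-only coding peak of 4.51 with log10 FDR -2.06, which faced peaks of 9330171B17Rik of 3.61 and 2.89 on the other strand. Kif6, of the kinesin-9 family of ciliary motors, had a KO-only coding peak of 13.5 (log10 FDR -2.52), which was the highest fold of any partnerless kinesin peak. The 3' UTR of Kif6 held a shared peak, at 7.48 in WT and 5.36 in KO, and a WT-only peak of 4.94 (log10 FDR -4.38). Kif19a, which sets cilium length, had 1 shared 3' UTR peak of 4.63 and 3.97 that passed the stricter FDR in neither list.

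Among the motors of the spindle and of cytokinesis, Kif11, which pushes spindle poles apart, had 1 peak in each list, a shared 3' UTR peak of 4.18 in WT (log10 FDR -77.2) and 6.57 in KO (-113) on chromosome 19 (37417910 to 37420601 and 37416582 to 37420601). Kif2c, a microtubule depolymerase at centromeres, had 1 in the 3' UTR, of 5.43 (-55.3) in WT and 12.2 (-118) in KO (chromosome 4, 117159639 to 117160237 and to 117160266). Kif14, of cytokinesis, had a coding peak near its start of 4.51 in WT and 9.92 in KO (chromosome 1, 136468091 to 136468989 and 136467882 to 136469079). Its shared 3' UTR peak was 8.33 in WT and 12.6 in KO, and 2 WT-only peaks of 7.41 and 4.63 (log10 FDR -2.34 and -0.945) followed it. In these 3 genes the listed fold was higher in KO at each shared place, but folds of separate lists have no common error and the difference was not tested.

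Kif23, which bundles midzone microtubules and lies in germ cell bridges, had a 3' UTR peak of 3.89 in WT and 2.77 in KO and an intron peak of 2.27 and 2.90, none at the stricter FDR. Kif20a, its relative in the kinesin-6 family, had 1 peak of 1.56 in WT and 2.62 in KO, and the opposite-strand peak of Cdc23 had 1.56 and 2.66. Kif22, a chromokinesin, had a shared 5' UTR peak of 5.79 in WT (log10 FDR -7.04) and 6.77 in KO (-4.11), and a KO-only intron peak of 2.89 (-2.67). Kif2b, another depolymerase, had 3 WT and 2 KO peaks with folds from 7.22 to 12, every one of them on a step and with no log10 FDR lower than -2.42.

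The minus-end motors of the kinesin-14 family had 5 WT and 9 KO peaks, with 0 WT-only and 2 KO-only. Kifc1, which clusters spindle poles and works in the manchette and acrosome, had coding peaks of 4.88 and 1.59 in WT and 7.54, 1.75 and 1.63 in KO. Kifc5b had a coding peak of 8.08 in WT (chromosome 17, 26922847 to 26924985) and 3 coding peaks of 7.75, 2.31 and 1.93 in KO, all shared because the WT peak spans them. Kifc1 and Kifc5b are near-identical copies on the same chromosome, so reads could be split between them and neither pattern can be given to 1 gene with certainty. Kifc3 had a shared intron peak of 3.70 and 5.71 and a KO-only intron peak of 7.22 (log10 FDR -0.572). Kifc2 had 1 weak 3' UTR peak, of 1.56 and 2.01.

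The 7 heavy and light chain genes of kinesin-1 had 8 WT and 5 KO peaks, with 3 WT-only and 0 KO-only. Kif5c, a heavy chain known from neurons, had a 3' UTR peak of 7.94 in WT and 4.23 in KO (chromosome 2, 49771461 to 49771850 and to 49771820) with log10 FDR of -10.6 and -11.9, and no other heavy chain passed the stricter FDR in either list. Kif5a stood at 2.28 and 2.82, and Klc1 at 2.36 and 4.51. Klc2 had a 5' UTR peak of 13.9 in WT and 7.67 in KO, facing a peak of Gm10817 of 14.3 and 7.44 on the other strand, and a weak WT-only 3' UTR peak of 2.50. The kinesin-8 genes (Kif18a, Kif18b and Kif19a) also had 2 WT-only and 0 KO-only peaks. With so few peaks per family these splits are counts only.

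In the kinesin-4 family, Kif21b, which limits microtubule growth in neurons and lymphocytes, had 9 peaks, all in the 3' UTR between 0.931 and 0.978 of the gene span. Its strongest was 6.43 in WT (chromosome 1, 136176741 to 136177130, log10 FDR -37.4) and 5.70 in KO (136176801 to 136177130, -54.8), and 1 weak peak of 2.09 was WT-only. Kif21a, its paralog, had 1 coding peak in each list, of 1.84 and 2.04. Kif4-ps had 11 noncoding peaks with folds from 1.89 to 5.87 in WT and 4.96 to 9.92 in KO. Of its WT peaks 4 passed the stricter FDR and of its KO peaks none, and since the pseudogene shares sequence with Kif4, the source of these reads is uncertain.

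Opposite-strand peaks touched other members too. Of the kinesin peaks 9 of 97 in WT and 9 of 95 in KO, in 7 genes each, lay over an opposite-strand peak of their own list. The share of all peaks that did so is not given, so these counts describe the members only. The folds on the 2 strands were equal or nearly so for Klc2, Kif4, Kif20a and the 3' UTR of Kif3c. They were apart for Kif27 (5.95 against 2.78 in WT and 8.60 against 4.46 in KO), for Kif7 in KO (10.2 against 4.21) and for the WT-only coding peak of Kif3c (1.98 against 6.48). These pairs shared only part of the kinesin peak. The Kif7 pair shared 51 bases of a 660-base peak, and the Kif3c pair 60 bases of a 91-base peak. For Kif27, 305 bases were shared in WT and 365 in KO. Folds of such pairs thus cover partly different bases. Over the whole lists, 562 of 1708 WT pairs (32.9%) and 509 of 1632 KO pairs (31.2%) that shared any bases, as the kinesin pairs were taken, had folds within 10%. Among them, 257 of 374 WT pairs (68.7%) and 233 of 337 KO pairs (69.1%) that covered at least 80% of each other did. The libraries were marked for strand with dUTP, per the labels' protocols.

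**Figure D5:**
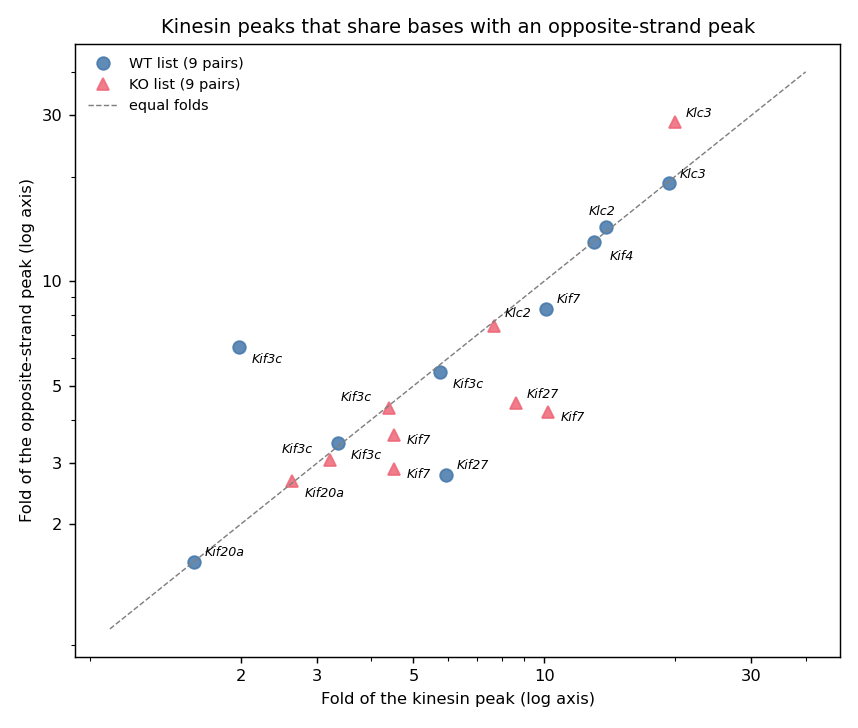
Fold of each kinesin peak against the fold of the opposite-strand peak that shares bases with it (both axes log), with circles for 9 WT and triangles for 9 KO pairs; a Kif7 peak in KO has 2 partners, and 1 KO pair is not shown. Most points lie on or near the dashed line of equal folds, and Kif27, Klc3 and Kif7 in KO, and a Kif3c peak in WT at 1.98 against 6.48 lie off it.

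Genes that work with kinesins were counted in the same way, and the shares over all genes to read them against are 32.0% with a WT-only and 27.9% with a KO-only peak, and 3.87% and 3.15% at the stricter FDR. Of 18 partners and cargo adaptors outside the naming rule, 16 had a peak, with WT-only peaks in 7 (43.8%, 23.1 to 66.8) and KO-only peaks in 3 (18.8%, 6.59 to 43.0). At the stricter FDR, Kidins220, a membrane scaffold that binds kinesin-1, had a WT-only peak, and Cenpe, the kinetochore kinesin whose symbol the rule does not match, had a KO-only peak. Of 28 genes of cytoplasmic dynein and dynactin, the minus-end motor complex, 21 had a peak, with WT-only peaks in 11 (52.4%, 32.4 to 71.7) and KO-only peaks in 7 (33.3%, 17.2 to 54.6). The stricter FDR left 3 of these genes (Dync1i2, Dynll2 and Dynlt1a) with a WT-only peak and 0 with a KO-only peak. Of 15 midzone and chromosome passenger genes, 12 had a peak, with WT-only peaks in 3 (25.0%, 8.89 to 53.2) and KO-only peaks in 4 (33.3%, 13.8 to 60.9). Those that passed the stricter FDR were Racgap1, the partner of Kif23 in centralspindlin, on the WT side, and Aurka and Birc5 on the KO side. Of 14 alpha and beta tubulins, 13 had a peak, with WT-only peaks in 3 (23.1%, 8.18 to 50.3) and KO-only peaks in 1 (7.69%, 1.37 to 33.3), none at the stricter FDR. Median folds in these 4 lists ran from 3.46 to 6.11 in WT and from 3.54 to 5.52 in KO.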

How the data were processed

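m6A peaks of testes at postnatal day 18 were taken from 2 deposited lists, which compare the 3 IP with the 3 input libraries of each genotype. The submitters' processing notes name HISAT2, StringTie, HOMER, FastQC and fastp, with the build GRCm38. The peak caller and the handling of replicates are not given in the sources used here. The authors give each peak a fold enrichment, the IP signal as a linear ratio to input. The log10 p-value and log10 FDR of each peak are scores deposited by the authors. The deposited peak length spans introns, and is 1 base too long because starts count from 0; positions here count from 1.

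Depth per library is unknown. Lists were compared with Python 3.11.15, pandas 2.3.3 and numpy 2.4.6, with functions checked on simulated data. Shares carry Wilson and differences Newcombe 95% intervals. Genes and position classes are the authors'. The step of each list was chosen as the value with the most whole multiples among partnerless peaks of that same list. A fold counted as a whole multiple of a step if that multiple gives the listed fold after rounding. Symbols and sequences were matched to RefSeq (GRCm38.p6). Peaks without a gene name were left out of counts of genes.

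The members, gene lists and tests were chosen with earlier results of these data known. Genes were named when they had a genotype-only peak at an FDR of 1e-05, ranked among the 5 highest shared folds of a list or the 5 highest peak numbers, had peaks in 1 list alone, or have a known role in division or the germ line. Members outside these classes (Kif1c, Kif21a, Kif13a, Kif28 and the like) were named by their counts or patterns, after their values were seen. An opposite-strand pair of the KO list is not reported here.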

Additional observations from a re-analysis of the deposited data

How the results depend on the processing

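The 10 summary values (partnerless shares and genes, 3' UTR and coding shares, median folds) were recomputed under other settings, giving 72 alternative values, of which 63 stayed within the counting interval or within 1.5 times of the count. With both lists limited to an FDR of 1e-05, WT-only peaks were left in 3 genes and KO-only peaks in 9, the 3' UTR held 64.0% of KO peaks, and the median fold was 6.67 in WT and 7.71 in KO. That setting leaves 48 WT and 50 KO peaks, and counts as partnerless a peak whose partner fails the limit. Shares over all genes and all peaks at that setting are not given, so its values describe the members only. With 50% of both peaks required to overlap, 48.5% of WT and 47.4% of KO kinesin peaks had no partner, in 26 and 31 genes. Many shared calls of the members thus rest on loose overlap. The shares of all peaks under that rule are not given, so these counts too describe the members only. An FDR limit of 0.05, a partner within 200 bases, strand ignored and light chains left out moved none of the 10 values that far. Lists of equal length kept all 97 WT and 95 KO kinesin peaks. That setting left every value as it was and tests nothing, although its values are counted among the 63. Leaving out Kif4-ps and Kif16bos, or leaving out the peaks that face an opposite-strand peak, also moved none; these settings were chosen after seeing the data. No paired analysis was possible because each genotype has 1 list and no values per library. For the same reason no replicate could be left out.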
